A study of Mus musculus with 12 samples.

Results

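The genes described here are the serpins and the other protease inhibitor families measured in mouse fallopian tubes: serpins, whey acidic protein (WAP) domain proteins, tissue inhibitors of metalloproteinases (Timps), Kazal-type inhibitors (Spink), Kunitz-type inhibitors (Spint) and cystatins. Members were all genes with values on the arrays whose annotated symbol begins with Serpin, Wfdc, Spink or Spint, or is Slpi, Timp1 to Timp4 or a numbered or lettered Cst gene. The rule itself used no measured value, but it was chosen with earlier results of these data known. It found 41 genes with 49 probes, of 11229 genes with 16664 probes in all. Not every member is a secreted inhibitor: the clade B serpins and cystatin B act largely inside cells, and Serpinf1 and Serpinh1 are serpins that inhibit no protease.

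In mogp-TAg mice the oviductal glycoprotein promoter drives the simian virus large T antigen, a protein that binds RB and p53, in secretory cells of the tubal epithelium. Total RNA from dissected fallopian tubes of 3 female mogp-TAg mice, aged 7, 8 and 9 weeks, was compared with that of 3 wildtype female mice of the same ages, all on a C57BL6 background. Each genotype and age had 2 Illumina BeadChip arrays, titled repeats 1 and 2. The titles name no mouse, and the 2 arrays were taken as repeats of 1 mouse, on which the count of 6 mice rests. They were averaged so that the mouse was the replicate. Expression is given as the normalized array signal of each mouse, in the order 7, 8 and 9 weeks, and differences are log2 of mogp-TAg minus wildtype. Median signals of the 12 arrays ran from 136.9 to 332 and were higher in repeat 1 in all 6 mice, and the number of mice limits the precision. A signal under 125, the lower quartile of all probes, is called near the floor, and a fold against it is understated. Signals of different probes are not comparable with each other. Whole tubes hold many cell types, and in such bulk samples fewer cells of a type and less RNA per cell cannot be told apart. The p-values measure the spread between these mice.

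Serpins inhibit serine proteases by a conformational trap that binds the protease covalently, whereas WAP, Kazal and Kunitz domains block the active site reversibly. Timps bind matrix metalloproteinases and related enzymes, and cystatins inhibit cysteine proteases such as the lysosomal cathepsins. In the oviduct such inhibitors are part of the luminal secretions and of the stromal matrix, where they limit matrix turnover and protect the mucosa.

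Promoter windows of 300 bases in RefSeq's GRCm38.p6 annotation are shown for the Timp4 and Serpinb11 genes, which fell most among the members, for Serpinb12, a gene of the same cluster as Serpinb11 that also fell, and for Wfdc2, a member that rose. Each reads 5′ to 3′ on the strand of the gene and lies mostly upstream of its annotated start. Capitals mark a TATAAA match. The windows are chr6:115252156-115252455, minus strand, for Timp4; chr1:107362064-107362363, plus strand, for Serpinb11; chr1:106934199-106934498, plus strand, for Serpinb12; and chr2:164562465-164562764, plus strand, for Wfdc2.
Timp4: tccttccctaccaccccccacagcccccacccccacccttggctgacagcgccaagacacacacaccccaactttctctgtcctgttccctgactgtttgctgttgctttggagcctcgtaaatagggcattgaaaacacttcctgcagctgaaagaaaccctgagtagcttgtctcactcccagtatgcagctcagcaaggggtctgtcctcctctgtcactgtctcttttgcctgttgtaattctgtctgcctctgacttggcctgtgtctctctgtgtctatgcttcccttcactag
Serpinb11: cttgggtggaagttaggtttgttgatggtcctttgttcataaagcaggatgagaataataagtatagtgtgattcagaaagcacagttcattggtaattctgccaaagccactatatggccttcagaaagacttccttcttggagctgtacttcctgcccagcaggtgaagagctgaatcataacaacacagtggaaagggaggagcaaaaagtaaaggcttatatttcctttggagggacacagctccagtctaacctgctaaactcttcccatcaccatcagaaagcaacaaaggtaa
Serpinb12: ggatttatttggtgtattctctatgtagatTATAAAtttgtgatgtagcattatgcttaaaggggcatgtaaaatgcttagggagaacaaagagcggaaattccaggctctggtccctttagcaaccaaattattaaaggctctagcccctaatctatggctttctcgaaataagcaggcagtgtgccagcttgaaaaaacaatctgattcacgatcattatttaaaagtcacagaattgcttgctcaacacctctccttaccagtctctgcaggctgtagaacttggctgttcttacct
Wfdc2: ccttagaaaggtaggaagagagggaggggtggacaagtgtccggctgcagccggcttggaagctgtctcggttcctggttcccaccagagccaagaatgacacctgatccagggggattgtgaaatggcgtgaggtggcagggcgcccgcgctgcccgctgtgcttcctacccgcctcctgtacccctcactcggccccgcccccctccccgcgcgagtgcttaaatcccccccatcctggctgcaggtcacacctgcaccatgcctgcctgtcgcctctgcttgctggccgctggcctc
The base composition of these windows differed. The Wfdc2 window was 65.3% G or C with 16 CG dinucleotides, and 82.3% of 32851 mouse promoter windows had a lower GC share. The windows of Serpinb11 (42.7%, 0 CG) and Serpinb12 (40.0%, 3 CG) had a GC share above that of only 15.6% and 10.1% of windows, and the Timp4 window (53.3%, 2 CG) lay near the middle. Of the 41 members 32 had a window in the table. The TATA box letters TATAAA, searched on both strands, occurred in those of 4 members, Serpinb12, Serpinb6c, Wfdc17 and Wfdc18, and in 13.6% of all windows. A consensus of the interferon-stimulated response element occurred in 1, that of Serpinb6a, against 3.44% of all windows. The palindromic estrogen response element (0.0700% of all windows) and the E2F site TTTGGCGC (0.514%) were found in 0 of the 32. No motif was found in overlap with another in the windows printed. A match of letters is a description of the window and not a binding site.

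Among the 41 inhibitor genes, 12 were lower and 2 were higher in the mogp-TAg tubes than in the wildtype tubes. The falls were led by Timp4, an inhibitor of matrix metalloproteinases, and by the clade B serpin Serpinb11, 7.95 and 7.25 times lower in mogp-TAg tubes, and the rises were those of Wfdc2 and Wfdc10, both WAP domain genes. The test was limma on the log2 mouse means, 3 mice per genotype, two-sided, with Benjamini-Hochberg adjustment over all 16664 probes and a threshold of 0.05. Of the members 34.1% were called, 4.88% higher and 29.3% lower, against 22.9% of all genes, 10.4% higher and 12.5% lower. The median difference was -0.25 over the members and -0.02 over all genes, and 29 members (70.7%) had a negative difference, against 52.4% of all genes. In 17 members (41.5%) the 3 mogp-TAg mice did not overlap the 3 wildtype mice, against 41.1% of all genes. Each gene is given by its probe with the highest mean signal. At an unadjusted p below 0.05, 18 members (43.9%) passed, against 37.2% of all genes. The counts depended on the mice: without the 8-week mogp-TAg mouse 6 members were lower and 1 was higher, and 11.6% of all genes were called. Without the 7- or the 9-week mogp-TAg mouse, or the 8- or the 9-week wildtype mouse, 1 member was higher, and without the 7-week wildtype mouse 3 were. In these omissions 14.8% to 23.8% of all genes were called. With the 7-week mogp-TAg mouse represented by its repeat 1 array alone, 13 members were lower and 2 higher. Of all genes 21.5% were called there.

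**Figure D1:**
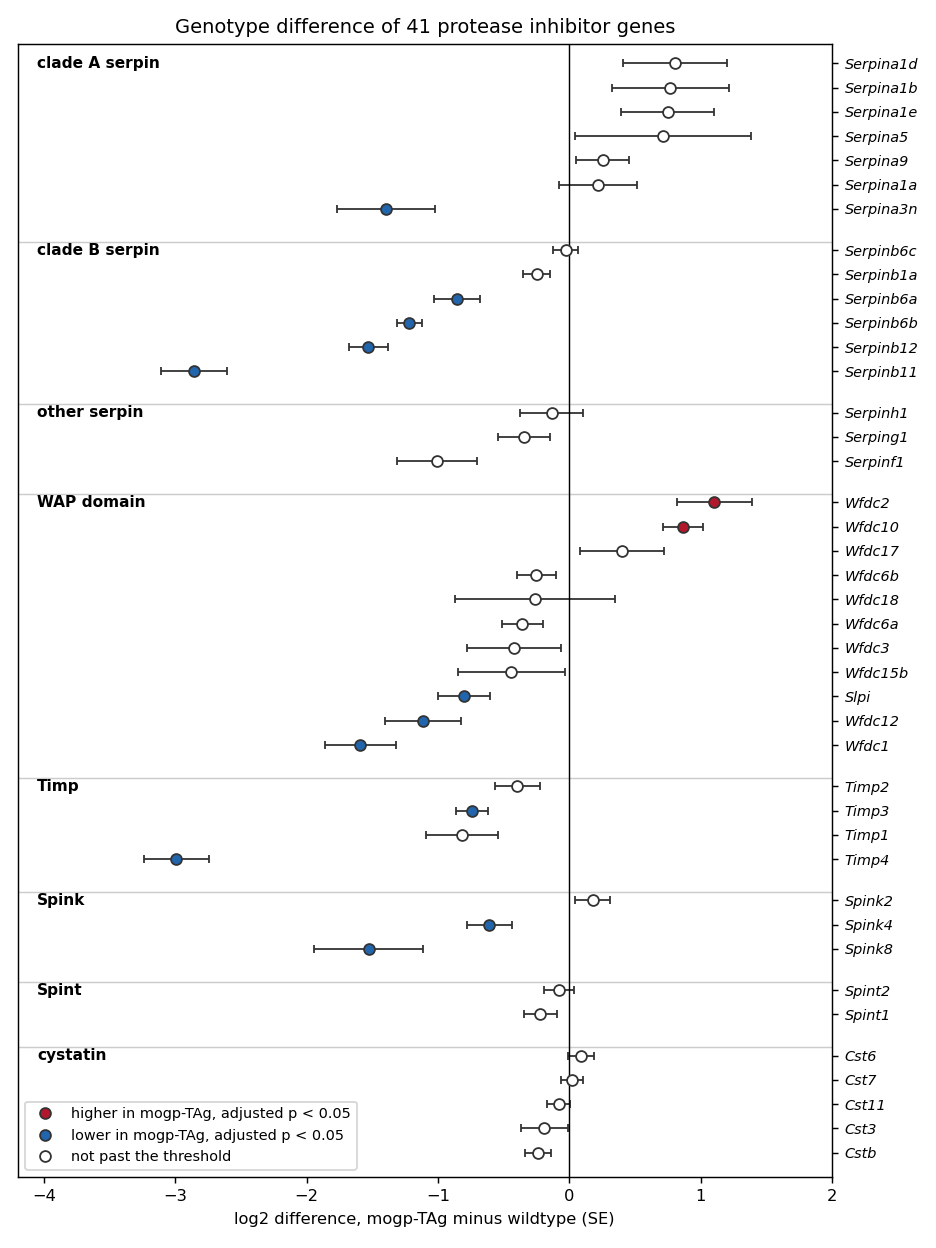
Log2 difference of mogp-TAg minus wildtype tubes for each of the 41 genes, grouped by inhibitor family, with its standard error (3 mice per genotype). Filled points passed the threshold: 12 genes lie left of 0 and 2 WAP domain genes lie right of it, while the 5 cystatins and both Spint genes lie close to 0.

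Marker transcripts of other cell types of the tube differed with genotype too. Of all genes, 12.5% were called lower and 10.4% higher in the mogp-TAg tubes. Of the marker genes measured, 7 of 8 for ciliated cells, 5 of 5 for mesothelium, 6 of 7 for smooth muscle, 4 of 6 for endothelium, 2 of 6 for fibroblasts, 2 of 4 for mast cells and 1 of 4 for adipocytes were lower in the mogp-TAg tubes. The mean log2 level of the mesothelial markers was 8.04 to 8.36 in the mogp-TAg mice and 9.40 to 9.87 in the wildtype mice. For the ciliated markers it was 8.84 to 9.17 in the mogp-TAg mice and 10.10 to 10.34 in the wildtype mice. The smooth muscle markers averaged 10.38 to 10.70 in the mogp-TAg mice and 11.47 to 11.63 in the wildtype mice, and the endothelial markers 8.34 to 8.75 in mogp-TAg and 9.01 to 9.15 in wildtype. All 4 proliferation markers (9.98 to 10.78 in mogp-TAg, 7.43 to 8.03 in wildtype) and 2 of 4 macrophage markers (9.69 to 10.34 in mogp-TAg, 9.17 to 9.32 in wildtype) were higher. None of the 4 secretory and 5 general epithelial markers passed. Ovgp1, the secretory gene whose promoter drives the transgene, had a mean signal of 19394 in mogp-TAg and 22828 in wildtype tubes. No marker of lymphocytes (0 of 4), neutrophils (0 of 5), ovary (0 of 5) or liver (0 of 3) passed. The liver genes Apoa1, Apoa2 and Ttr, the lymphocyte genes Cd3g, Cd79a and Nkg7, the neutrophil genes Ngp and Camp, the ovarian genes Cyp11a1 and Zp3, the mast cell gene Tpsb2 and the secretory gene Sprr1a lay near the floor in both genotypes. Neutrophil markers averaged 6.80 to 8.52 in the mogp-TAg mice and 6.55 to 7.46 in the wildtype mice, and ovarian markers 6.82 to 8.37 in mogp-TAg and 6.81 to 7.25 in wildtype. The part of these cell types in the differences of the inhibitor genes was not tested.

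Timps came down in 2 of 4 cases. Timp4 had signals of 205, 130.03 and 109 in the mogp-TAg mice, against 1062, 957 and 1435 in the wildtype mice. The groups were far apart, and the 8- and 9-week mogp-TAg mice lay close to the floor. Timp4 was 7.95 times lower in mogp-TAg tubes (log2 -2.99, SE 0.25, adjusted p = 4.60e-04 by limma, n = 3 mice per genotype), and it passed under every one of the 22 alternative settings and omissions, with adjusted p between 2.94e-07 and 0.0150. In the annotation Timp4 overlaps the synapsin gene Syn2, whose signals were 203, 319 and 297 in mogp-TAg and 342, 1152 and 429 in wildtype mice (log2 -1.05, SE 0.43, adjusted p = 0.128). The part of Syn2 transcripts in the Timp4 signal was not tested. Other members overlap another gene in the annotation too, among them Timp3 (Syn3), Timp1 (Syn1), Wfdc10 (Wfdc9) and Serpinb6a (Nqo2 and Ripk1). Further called members with such an overlap are Wfdc1, Wfdc12, Spink8 and Slpi. The part of those genes in the signals was not tested either.

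Timp3, which binds to the extracellular matrix and also inhibits ADAM-family sheddases, had signals of 2319, 1871 and 2513 in mogp-TAg mice, against 3909.9, 3526 and 3695 in wildtype mice. All 3 mogp-TAg mice were below all wildtype mice (log2 -0.74, SE 0.12, adjusted p = 0.00592 by limma). A further probe of Timp3 did not follow it, with 253, 214 and 232 in mogp-TAg and 257, 284 and 212 in wildtype mice (log2 -0.10, SE 0.13, adjusted p = 0.617). The fall is thus that of 1 of 2 probes, and the transcripts each probe reads are not stated.

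The inducible inhibitor Timp1 had signals of 265, 347 and 247 in mogp-TAg mice and 346, 474 and 755 in wildtype mice. The highest mogp-TAg mouse, at 8 weeks, was level with the lowest wildtype mouse, at 7 weeks, and the wildtype mouse of 9 weeks was the highest of all. This probe missed the threshold (log2 -0.82, SE 0.27, adjusted p = 0.0742), while the other Timp1 probe, with 283, 293 and 274 in mogp-TAg and 383, 456 and 679 in wildtype mice, passed (log2 -0.79, SE 0.20, adjusted p = 0.0271). The main probe passed as well in 3 of the 22 alternatives. These included the omission of the 7-week wildtype mouse (-1.08, adjusted p = 0.029), which takes the overlap away. Another was a fit of the 12 single arrays (-0.82, adjusted p = 0.0152). That fit had the repeat number as a covariate and the mouse as a block. It counts the 2 arrays of a mouse as only partly dependent, with a correlation of 0.31, so the mouse mean is not its replicate. Timp2, a constitutive member that takes part in the activation of MMP pro-enzymes, had signals of 2587, 2594 and 3668 in mogp-TAg mice and 4126, 3204 and 4233 in wildtype mice. The 9-week mogp-TAg mouse lay within the wildtype range, and the difference did not pass (log2 -0.40, SE 0.17, adjusted p = 0.145). It passed in 3 of the 22 alternatives, among them the omission of that mouse (-0.56, adjusted p = 0.0462), which takes the overlap away.

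Clade B serpins fell in 4 of 6 cases. Serpinb11, an intracellular serpin of epithelia, had signals of 112, 114 and 99.2 in mogp-TAg mice, against 508, 1056 and 895 in wildtype mice. Every mogp-TAg value was near the floor and every wildtype value far above it. Serpinb11 was 7.25 times lower in mogp-TAg tubes, which is an understated fold (log2 -2.86, SE 0.25, adjusted p = 5.19e-04 by limma). Serpinb12, an inhibitor of trypsin-like proteases, had 119, 107 and 83.9 in mogp-TAg mice and 328, 300.1 and 263 in wildtype mice. All 3 mogp-TAg values were again near the floor (log2 -1.53, SE 0.15, adjusted p = 7.11e-04). Its other probe fell too (log2 -1.33, SE 0.11, adjusted p = 4.34e-04). Serpinb11 and Serpinb12 belong to the clade B cluster of chromosome 1, while the clade B genes of the next paragraph lie in a cluster on chromosome 13.

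Serpinb6a and Serpinb6b are mouse copies related to human SERPINB6, an inhibitor of cathepsin G and trypsin-like enzymes inside cells. Serpinb6b had signals of 191, 156 and 175 in mogp-TAg mice, against 408, 399.8 and 401 in wildtype mice. The wildtype mice differed little among themselves and were all above the mogp-TAg mice (log2 -1.22, SE 0.10, adjusted p = 4.11e-04, 2.33 times lower in mogp-TAg). Serpinb6a had 1968, 1379.6 and 1339 in mogp-TAg mice and 2517, 2595 and 3303 in wildtype mice, with no overlap and the highest mogp-TAg value at 7 weeks (log2 -0.86, SE 0.18, adjusted p = 0.0139). It missed the threshold without the 8-week mogp-TAg mouse (-0.78, adjusted p = 0.0656) and on the repeat 2 arrays alone (-0.70, adjusted p = 0.0756). The elastase and cathepsin G inhibitor Serpinb1a was lower in every mogp-TAg mouse than in every wildtype mouse but did not pass (log2 -0.25, SE 0.10, adjusted p = 0.135), and Serpinb6c was near the floor in both genotypes (log2 -0.03, SE 0.10, adjusted p = 0.868). Because the Serpinb6 genes are close copies, a probe may read more than 1 of them.

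**Figure D2:**
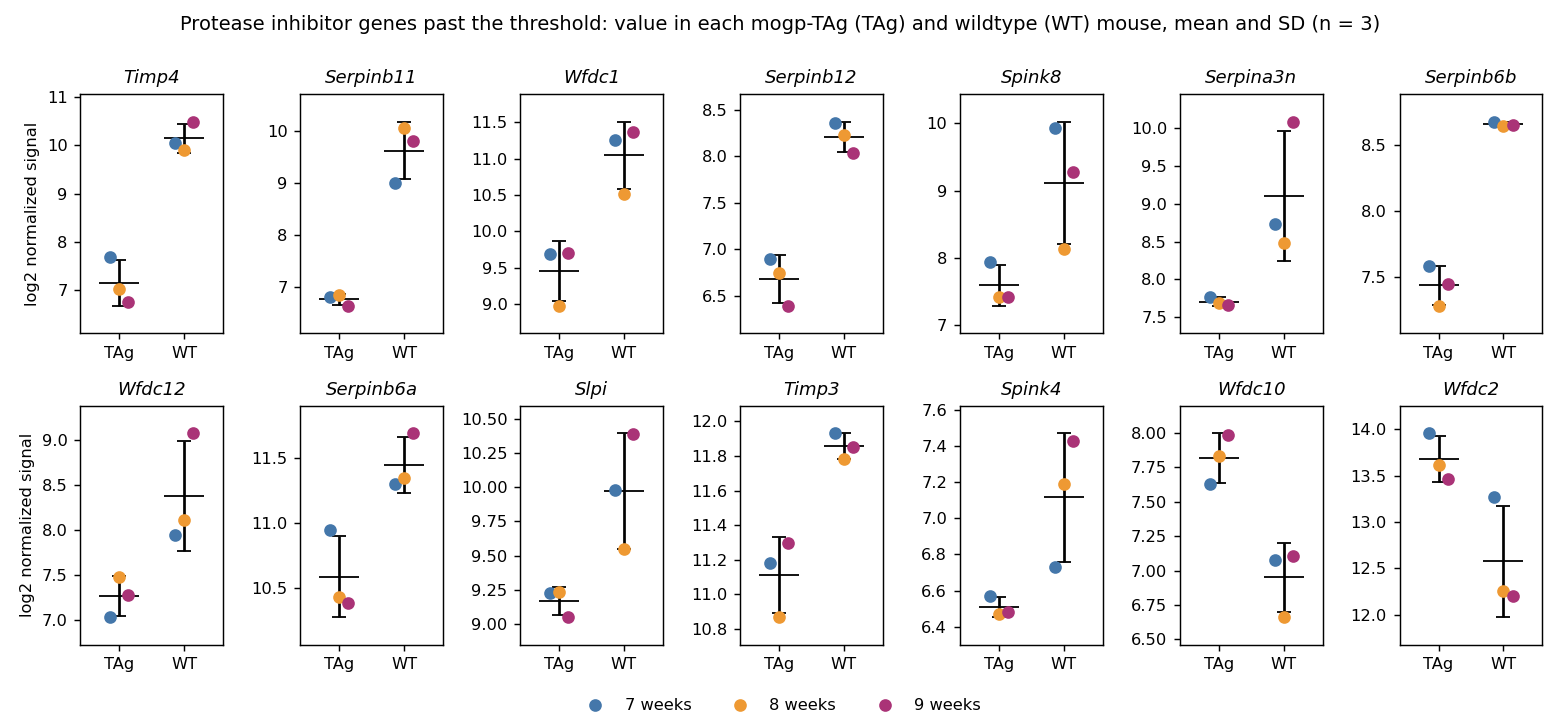
Log2 normalized signal in each of the 3 mogp-TAg (TAg, left) and 3 wildtype (WT, right) mice for the 14 genes past the threshold, colored by age, with the mean and SD. In every panel the groups do not overlap, and each vertical axis has its own range and does not start at 0.

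Of 7 clade A serpins, the group of circulating serpins that includes alpha-1-antitrypsin, 1 fell and 0 rose. Serpina3n, a mouse relative of antichymotrypsin that inhibits granzyme B and elastase and responds to inflammation, had signals of 218, 207 and 202 in mogp-TAg mice, against 427, 359 and 1086 in wildtype mice. The mogp-TAg mice were alike and all lower, and the 9-week wildtype mouse stood above the other wildtype mice (log2 -1.40, SE 0.37, adjusted p = 0.0361 by limma, 2.63 times lower in mogp-TAg). The call was lost without any 1 mogp-TAg mouse or without the 7-week wildtype mouse (adjusted p from 0.0521 to 0.115), with log2 differences of -1.58 to -1.37.

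The alpha-1-antitrypsin genes Serpina1a, Serpina1b, Serpina1d and Serpina1e, which inhibit elastase and are best known from liver, had positive differences that did not pass. Serpina1e had signals of 12388, 12633 and 15022 in mogp-TAg mice and 13133, 4391 and 8561 in wildtype mice. Serpina1b had 3477, 4293 and 6229 in mogp-TAg mice and 4432, 1266 and 3335 in wildtype mice. In both genes the 8-week wildtype mouse was the lowest of the 6 and the 7-week mice of the 2 genotypes were close. Their differences were 0.75 (SE 0.35, adjusted p = 0.175) for Serpina1e, 0.77 (SE 0.45, adjusted p = 0.265) for Serpina1b, 0.81 (SE 0.39, adjusted p = 0.192) for Serpina1d and 0.22 (SE 0.30, adjusted p = 0.640) for Serpina1a. Serpina1e passed in 1 of the 22 alternatives, the omission of the 7-week wildtype mouse (1.12, adjusted p = 0.0414). Apart from the deposited scores, its difference ran from 0.33 to 1.17 over the alternatives. Without the low 8-week wildtype mouse the Serpina1a difference was -0.11. A further Serpina1b probe lay near the floor in both genotypes (log2 0.02, SE 0.08, adjusted p = 0.911), and a further Serpina1a probe did not pass (log2 0.37, SE 0.32, adjusted p = 0.448). These are near-identical copies in 1 cluster on chromosome 12, so their probes may share transcripts and count as 1 pattern. The liver genes Apoa1, Apoa2 and Ttr lay near the floor in both genotypes, and the part of liver tissue in the Serpina1 signals was not tested.

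Serpina5, the protein C inhibitor of reproductive tissues, was set apart by 1 mouse, with signals of 605, 92.1 and 97.5 in mogp-TAg and 129, 92.5 and 102 in wildtype mice. In the 7-week mogp-TAg mouse its repeats gave 298 in repeat 1 and 1229.6 in repeat 2, and all other mice lay near the floor or just above it. The ovarian gene Inha, at 266 and 1729, and the neutrophil gene S100a8, at 1146 and 8343 in repeats 1 and 2 of that mouse, moved with it. In the 8-week wildtype mouse S100a8 read 247 in repeat 1 and 1244 in repeat 2, while Serpina5 read 97.8 and 87.6, near the floor on both arrays. Inha and S100a8 were named after their values were seen, and the part of ovarian cells or neutrophils in the Serpina5 signal was not tested. The Serpina5 difference was 0.72 (SE 0.67, adjusted p = 0.492) and -0.18 without the 7-week mogp-TAg mouse. A further Serpina5 probe was near the floor in every mouse, with 115, 88.7 and 88.4 in mogp-TAg and 87.0, 89.3 and 87.5 in wildtype mice (log2 0.13, SE 0.12, adjusted p = 0.458). Serpina9, a serpin of germinal centre B cells, differed by 0.25 (adjusted p = 0.416).

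**Figure D3:**
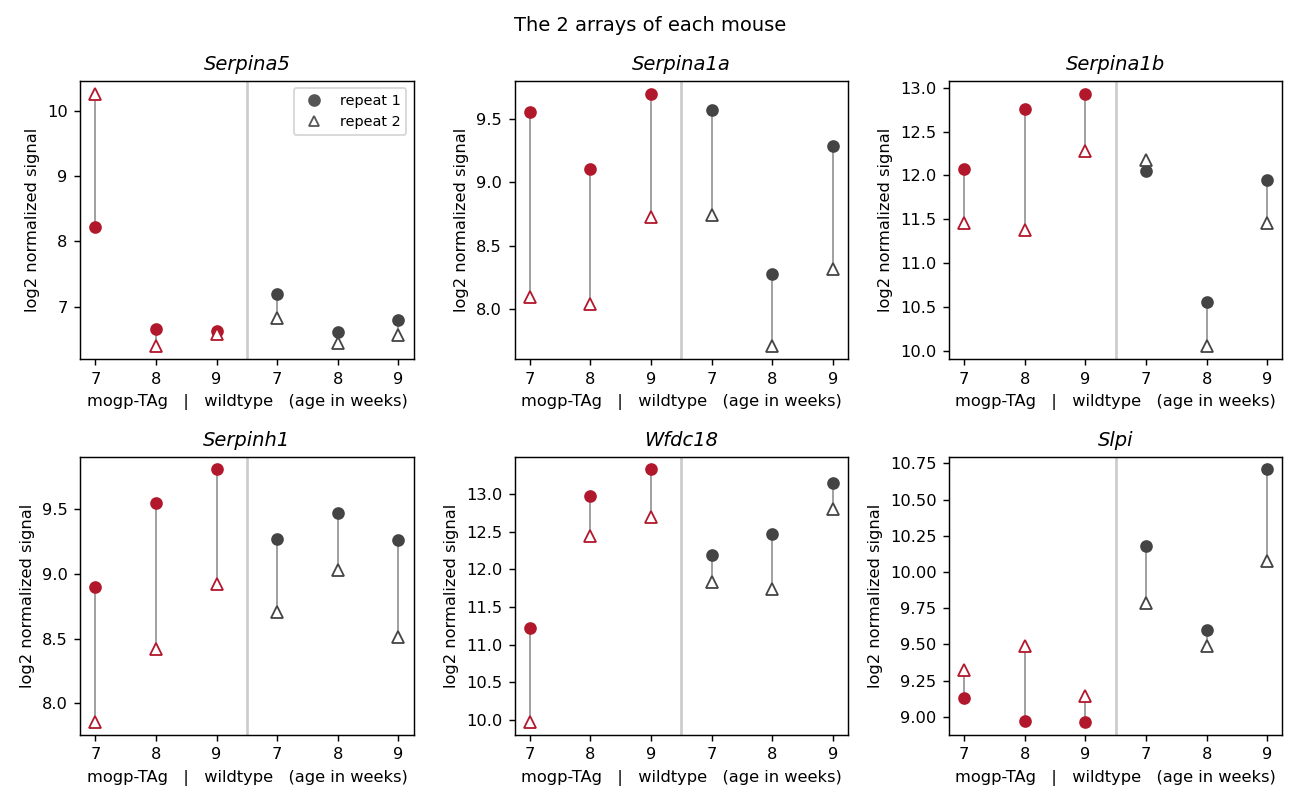
Log2 normalized signal of both arrays (filled circle, repeat 1; open triangle, repeat 2) of each mouse for 6 genes, with mogp-TAg mice at left in red and wildtype mice at right in grey, by age in weeks. Serpina5 is high only in the 7-week mogp-TAg mouse and mostly in its repeat 2, and Slpi is higher in repeat 2 in mogp-TAg mice and higher in repeat 1 in wildtype mice; axes do not start at 0.

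The 3 serpins of other clades did not pass. Serpinf1, the anti-angiogenic pigment epithelium-derived factor, had signals of 4484, 2286 and 2964 in mogp-TAg mice and 7144, 8107 and 4239.5 in wildtype mice. The 7-week mogp-TAg mouse lay just above the 9-week wildtype mouse, the only overlap. It missed the threshold (log2 -1.00, SE 0.30, adjusted p = 0.0549) but passed under 12 of 22 alternatives. Among them were the fit of the 12 single arrays (-1.00, adjusted p = 0.0082), the omission of the 7-week mogp-TAg mouse (-1.27, adjusted p = 0.0222) and that of the 9-week wildtype mouse (-1.29, adjusted p = 0.0287). Either omission takes the overlap away.

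Serping1, the C1 inhibitor of the complement and contact systems, had 3466, 2892 and 3011 in mogp-TAg mice and 4609, 2858 and 4696 in wildtype mice. The groups overlapped through the 8-week wildtype mouse (log2 -0.35, SE 0.20, adjusted p = 0.256). The difference passed in 2 of the 22 alternatives, among them the omission of that mouse (-0.58, adjusted p = 0.0154), which takes the overlap away. Serpinh1, the collagen chaperone of the endoplasmic reticulum also called HSP47, had 332, 507 and 659 in mogp-TAg mice and 507, 610.3 and 473 in wildtype mice. The mogp-TAg values spanned the wildtype range (log2 -0.13, SE 0.24, adjusted p = 0.731).

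WAP domain genes went both ways, with 3 of 11 lower, 2 higher and 6 not called. Wfdc1, also known as ps20, a secreted protein of stromal and smooth muscle cells, had signals of 822, 504 and 832 in mogp-TAg mice, against 2441, 1461 and 2631 in wildtype mice. The 8-week mouse was the lowest of each genotype, and the groups did not overlap. The difference was alike at the 3 ages, at -1.57, -1.54 and -1.66 (log2 -1.59, SE 0.27, adjusted p = 0.00697 by limma, 3.01 times lower in mogp-TAg). Beside it 6 of 7 smooth muscle markers were lower, and their part in the Wfdc1 difference was not tested.

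Slpi, the secretory leukocyte protease inhibitor, blocks neutrophil elastase and cathepsin G at mucosal surfaces. It had signals of 598, 601 and 531 in mogp-TAg mice, against 1011, 747 and 1342 in wildtype mice. The mogp-TAg mice were alike, the wildtype mice varied, and the groups did not overlap (log2 -0.80, SE 0.20, adjusted p = 0.0274 by limma, 1.75 times lower in mogp-TAg). The difference was -1.14 (adjusted p = 0.0225) on the repeat 1 arrays and -0.47 (adjusted p = 0.102) on the repeat 2 arrays, and the call was lost without the 8- or the 9-week mogp-TAg mouse or the 7- or the 9-week wildtype mouse (adjusted p from 0.0503 to 0.0849). In 5 of the 41 members (12.2%), Slpi among them, repeat 2 read above repeat 1 in every mogp-TAg mouse and below it in every wildtype mouse, against 1.47% of all genes. Of 5 neutrophil markers 0 passed, and 2 of them, Ngp and Camp, lay near the floor in both genotypes. The part of neutrophils in the Slpi difference was not tested.

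Wfdc12, a small antimicrobial WAP protein, had 131, 179 and 155 in mogp-TAg mice, against 246, 277 and 539 in wildtype mice. The highest value was that of the 9-week wildtype mouse, and there was no overlap (log2 -1.11, SE 0.29, adjusted p = 0.0317). The call was lost without any 1 of the mogp-TAg mice (adjusted p from 0.0719 to 0.0812). Wfdc15b, an antibacterial protein related to Slpi, did not pass (log2 -0.44, SE 0.41, adjusted p = 0.489). Its signals were 1444, 1375 and 1293 in mogp-TAg mice and 2183, 905 and 3245 in wildtype mice. The 8-week wildtype mouse lay below all 3 mogp-TAg mice, and the 7- and 9-week wildtype mice lay above them. The difference passed in 1 of the 22 alternatives, the omission of the 8-week wildtype mouse (-0.96, adjusted p = 0.0129), which takes the overlap away.

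Wfdc2, the secreted epithelial protein whose human counterpart HE4 is a serum marker of ovarian carcinoma, was higher in the mogp-TAg tubes. Its signals were 15919.9, 12518 and 11324 in mogp-TAg mice, against 9855, 4879 and 4730.2 in wildtype mice. The 7-week mouse was the highest of each genotype, and no mogp-TAg mouse fell within the wildtype range. The rise was 2.15-fold (log2 1.10, SE 0.29, adjusted p = 0.0324 by limma), and the other Wfdc2 probe rose as well (log2 1.23, SE 0.27, adjusted p = 0.0168). The call of the first probe was lost on the repeat 1 arrays (0.80, adjusted p = 0.0912) and when any 1 mouse other than the 7-week wildtype mouse was left out (adjusted p from 0.0603 to 0.102), with log2 differences of 0.92 to 1.21 in those omissions.

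Wfdc10, a WAP gene of the chromosome 2 cluster, had 198, 229 and 254 in mogp-TAg mice, against 135, 101 and 138 in wildtype mice. It rose 1.82-fold over a wildtype mean near the floor, an understated fold, with no overlap (log2 0.87, SE 0.15, adjusted p = 0.00707). Wfdc2, Wfdc10, Slpi and Wfdc12 all lie in the WAP cluster of chromosome 2, so 2 genes of this cluster rose and 2 fell. From the same cluster Wfdc3 (-0.42, adjusted p = 0.447), Wfdc6a (-0.36, adjusted p = 0.147) and Wfdc6b (-0.25, adjusted p = 0.280) did not pass. Wfdc6b had signals of 101, 116 and 145 in mogp-TAg mice and 162, 135 and 132 in wildtype mice, with the 7- and 8-week mogp-TAg mice below all wildtype mice and the 9-week mogp-TAg mouse within their range.

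Wfdc18, the extracellular proteinase inhibitor first known from mammary gland, had signals of 1544, 6702 and 8274 in mogp-TAg mice and 4133, 4403 and 8045 in wildtype mice. The 7-week mogp-TAg mouse was the lowest of all and the other mogp-TAg mice lay within or just above the wildtype range (log2 -0.26, SE 0.61, adjusted p = 0.799), with a difference of 0.50 without that mouse. Its neighbour on chromosome 11, Wfdc17, known in mouse from activated macrophages and microglia, had 518, 321 and 199 in mogp-TAg mice and 209, 233 and 295 in wildtype mice. The mogp-TAg value was highest at 7 weeks and lowest at 9 weeks, while the wildtype values ran the other way (log2 0.40, SE 0.32, adjusted p = 0.420).

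Kazal-type inhibitors fell in 2 of 3 cases. Spink8, a secreted inhibitor with an epithelial pattern in the male tract, had signals of 245, 171 and 169.98 in mogp-TAg mice, against 975, 281 and 620.2 in wildtype mice. The wildtype mice varied widely, with the lowest at 8 weeks, but all were above the mogp-TAg mice (log2 -1.53, SE 0.41, adjusted p = 0.0378 by limma, 2.88 times lower in mogp-TAg). The call was lost without the 8- or the 9-week mogp-TAg mouse or the 7- or the 9-week wildtype mouse (adjusted p from 0.0777 to 0.130), and on the repeat 1 arrays alone (-1.56, adjusted p = 0.0517). Spink4, known from intestinal goblet cells, had 95.1, 88.8 and 89.4 in mogp-TAg mice, all near the floor, against 106, 146 and 172 in wildtype mice. The groups did not overlap, and Spink4 fell by 0.61 on the log2 scale (SE 0.17, adjusted p = 0.0411). That call was lost without any 1 mouse other than the 7-week wildtype mouse (adjusted p from 0.0634 to 0.134), with age as a block (-0.61, adjusted p = 0.0540) and on the repeat 1 arrays alone (-0.48, adjusted p = 0.0930). The acrosin inhibitor Spink2 did not pass (log2 0.18, SE 0.13, adjusted p = 0.380).

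Neither Kunitz-type inhibitor passed. Spint1, which restrains the membrane protease matriptase and the hepatocyte growth factor activator, had 224, 252 and 226 in mogp-TAg mice and 234, 319 and 271 in wildtype mice (log2 -0.22, SE 0.13, adjusted p = 0.257). Spint2, its relative with overlapping targets, had 276, 262 and 305 in mogp-TAg mice and 279, 271 and 339.8 in wildtype mice (log2 -0.07, SE 0.11, adjusted p = 0.686). The groups overlapped in both genes.

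The 5 cystatins did not pass either. Cst3, the widely secreted cystatin C, had signals of 8695, 6499 and 7155 in mogp-TAg mice and 9784, 6508 and 9398 in wildtype mice, with overlapping groups (log2 -0.19, SE 0.18, adjusted p = 0.503). Cstb, the cytosolic cystatin B, had 6237, 6583 and 6219.6 in mogp-TAg mice and 6656, 7829 and 8038 in wildtype mice. Every mogp-TAg mouse was below every wildtype mouse, but by little (log2 -0.24, SE 0.10, adjusted p = 0.128). Cst6, Cst7 and Cst11 were near the floor in both genotypes, with differences between -0.08 and 0.09.

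The second comparison asked whether the genotype difference changed with age, by the genotype-by-age term of limma on the same 6 mice, with age as a number and 2 residual degrees of freedom. None of the 41 members passed (0 called, lowest adjusted p = 0.687), and 0 of all 11229 genes did. At an unadjusted p below 0.05, 8 members (19.5%) passed, against 7.13% of all genes. The 3 members with the lowest p were Wfdc17 (-0.94 log2 per week, SE 0.10, unadjusted p = 1.54e-04, adjusted p = 0.687), Timp4 (-0.68 log2 per week, SE 0.18, unadjusted p = 0.0101, adjusted p = 0.755) and Wfdc6b (0.41 log2 per week, SE 0.11, unadjusted p = 0.0105, adjusted p = 0.755). In the fit of the 12 single arrays the lowest adjusted p among the members was 0.0912, and 0 members passed.

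Each age had 1 mouse per genotype, so the differences at an age have no replicate. Over the members the median difference was -0.35 at 7 weeks, -0.12 at 8 weeks and -0.26 at 9 weeks, and 25 members had 1 sign at all 3 ages, among them all 14 called ones, which the call on these mice nearly requires. Timp4 differed by -2.37, -2.88 and -3.72, Serpinb6a by -0.35, -0.91 and -1.30 and Timp1 by -0.39, -0.45 and -1.61 at 7, 8 and 9 weeks. Wfdc17 differed by 1.31, 0.46 and -0.57, changing sign at 9 weeks, and Wfdc18 by -1.42, 0.61 and 0.04. Serpina1b, at -0.35, 1.76 and 0.90, was highest at 8 weeks, where the wildtype mouse was low.

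**Figure D4:**
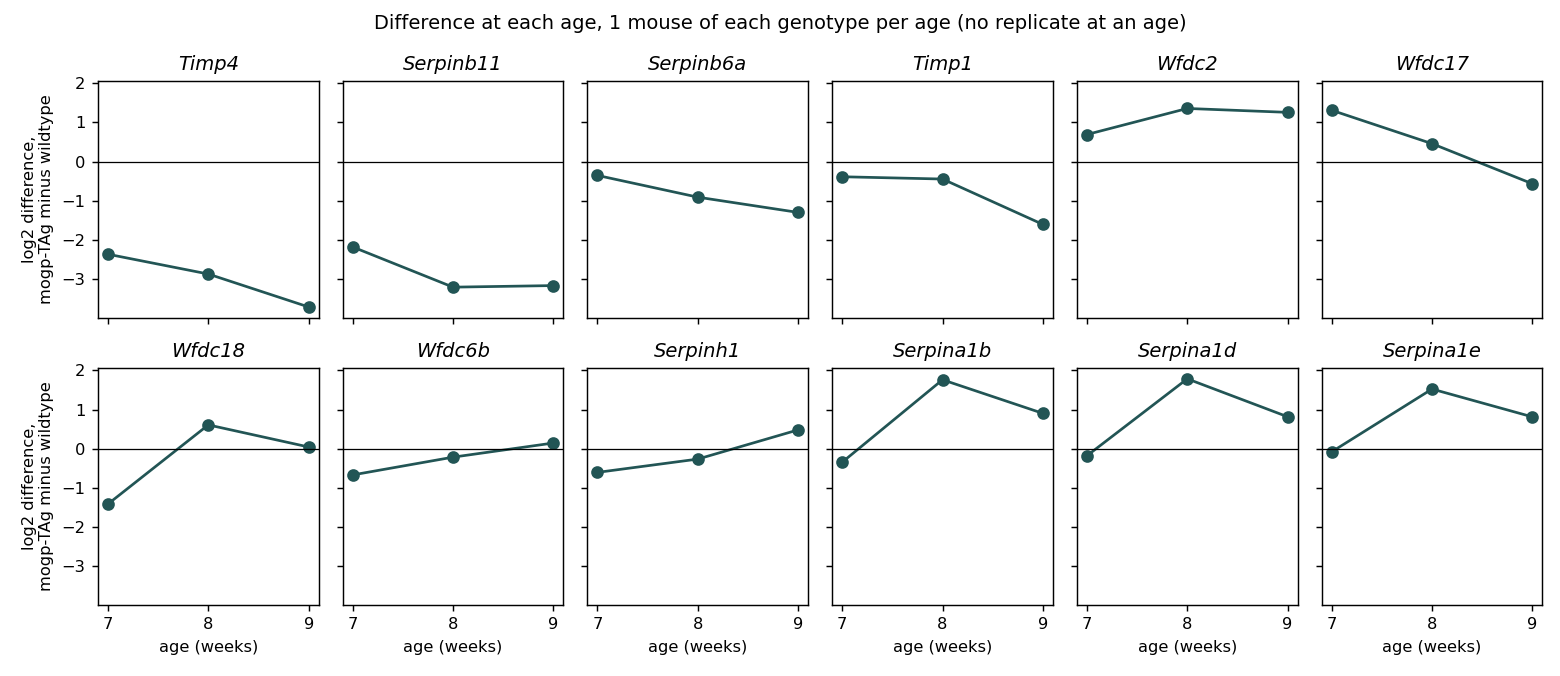
Log2 difference of the mogp-TAg minus the wildtype mouse at 7, 8 and 9 weeks for 12 genes, 1 mouse of each genotype per age, without error bars because an age has no replicate. Timp4 and Serpinb11 are below 0 at every age, Wfdc2 is above 0 at every age, and Wfdc17 changes sign.

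The proteases these inhibitors act on, and inhibitors of other families, were measured on the same arrays. Of 52 genes in a first list 27 had values. These were the urokinase receptor Plaur and serine proteases such as the plasminogen activator Plau, kallikreins and membrane-bound proteases. Of the 27 measured genes 5 were higher and 4 lower, or 33.3% against the 22.9% of all genes. The tissue kallikrein Klk1 rose 4.52-fold (log2 2.18, SE 0.23, adjusted p = 0.001), with signals of 1424, 2783 and 2235 in mogp-TAg and 402, 501 and 477 in wildtype mice. The membrane proteases Tmprss4 (1.25) and St14 (0.84), which is matriptase and a target of Spint1, rose too, as did Hgfac (0.65), the hepatocyte growth factor activator. The trypsin-like secreted protease Htra3 (-1.35), the mast cell protease Mcpt4 (-0.71), plasma kallikrein Klkb1 (-0.46) and coagulation factor F11 (-0.39) fell. Mcpt4 and Klkb1 lay near the floor in mogp-TAg on average, and F11 lay near it in both genotypes. Mcpt4 is also 1 of the 2 mast cell markers that fell.

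Of 30 genes in a second list 28 had values, and 5 were higher and 2 lower (25% of the 28). The measured genes were cysteine proteases and metalloproteinases, the serine carboxypeptidase Ctsa, 1 of the 5 higher genes (0.60), and the aspartic protease Ctsd. Legumain, Lgmn (0.80), an asparaginyl protease of lysosomes that cystatins also inhibit, the stromelysin Mmp10 (0.74), matrilysin Mmp7 (0.63) and cathepsin S, Ctss (0.62), rose. Cathepsin K, Ctsk (log2 -1.21, SE 0.10, adjusted p = 4.60e-04), a collagen-degrading enzyme, and Mmp23 (log2 -1.21, SE 0.28, adjusted p = 0.0218) fell. Of 27 genes listed as inhibitors, or as carrying related domains, outside the 41 genes 6 were lower and 1 higher (25.9%). Kininogen Kng1 (-1.30), the tissue factor pathway inhibitor Tfpi (-0.70), the peptidase inhibitor Pi16 (-0.70) and the extracellular matrix protein Ecm1 (-0.68) were lower. The higher one was Birc5, or survivin (3.07), an apoptosis inhibitor that is also part of the mitotic machinery. Without the 8-week mogp-TAg mouse the calls of Hgfac, Mcpt4, Klkb1, F11, Mmp10, Mmp23, Lgmn, Pi16 and Ecm1 were lost. Among the omissions of 1 mouse, that of Lgmn was lost in this one only, and it was also lost without both 7-week mice (0.60, adjusted p = 0.0815) or both 8-week mice (0.76, adjusted p = 0.121). The call of Ctss was lost on the repeat 1 arrays alone (0.71, adjusted p = 0.0564) and on the repeat 2 arrays alone (0.54, adjusted p = 0.0763). F11 and Ecm1 were also lost without the 7- or the 9-week wildtype mouse, and Mmp23 without either of these or the 9-week mogp-TAg mouse. Mcpt4 and Mmp10 were lost without any 1 of the mogp-TAg mice, and without the 8-week (Mcpt4) or 9-week (Mmp10) wildtype mouse. Hgfac and Klkb1 were lost in every single omission but that of the 8-week wildtype mouse, and Pi16 in every one but that of the 7-week wildtype mouse. The adjusted p in these omissions ran from 0.0530 to 0.136.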

How the data were processed

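Fallopian tube RNA of 6 mice was measured on 12 Illumina mouse BeadChip arrays, read with GenomeStudio 1.6.0 per the submitters' processing notes. The deposited score of each probe was a log signal standardized within its array by the authors, as the values show; no source states the centre and scale. The array signals were recovered from those scores, since every value on every array came out whole in the last printed digit within a tolerance of 0.01. Of 25697 probes, 9033 were blank on all arrays, and 16664 were tested. Signals were quantile-normalized between arrays, put on log2 and averaged over the 2 arrays of each mouse. The 24 columns of a further table could not be matched to single samples and were not used.

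The genotype difference and its interaction with age were fitted with limma 3.58.1 (R 4.3.3), two-sided, with 4 and 2 residual degrees of freedom and Benjamini-Hochberg adjustment over all probes. Probes were named from the platform's annotation, which gave 1 symbol to 15687 probes and none to 977. Each gene is given by its highest probe on average. Values in every mouse are given for members called with a log2 difference of at least 1, for members fixed by name, for the 3 with the lowest interaction p and for the 5 with the highest mean signal. From the protease and inhibitor lists, called genes with up to 4 differences in each direction are named. Serpina5, Serpinb6a, Spink4, Wfdc10, Wfdc15b, Serpina1a, Serpina1b, Serpina1d, Klk1, Ctsa and Syn2 were described beyond that rule, after their values were seen. The members and lists were chosen with earlier results of these data known.

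The repeat numbers pair the arrays across mice: the deviations of repeats from their mouse means correlated between mice at 0.11 to 0.64. The deviations of the mogp-TAg and wildtype mice of one age correlated at 0.32, 0.10 and -0.07. The value at 7 weeks lies within the range of the repeats, and mice of different ages were not compared. The check therefore does not settle whether ages pair mice, and the main fit left age out. Tested on simulated data of 16664 probes, of which 200 differed, the genotype fit found 80% at a true difference of log2 1 and 100% at log2 2, and 8 of its 188 calls were false. The interaction test found 45% and 85% at log2 1 and 2 per week, and 5 of its 135 calls were false. Both runs used independent normal noise with the residual spread of the genotype fit. Far fewer probes differed in them than were called in the data, where 22.9% of all genes passed for genotype. These rates are therefore not those of the fits to the data. Alternatives were the deposited scores, normexp with an offset of 50, median scaling, no scaling, array weights, a replicate block, an age block, each repeat alone, filters on dim probes, the mean of all probes of a gene, and the omission of mice or ages. The replicate block was a fit of the 12 single arrays with the repeat number as a covariate and the mouse as a block. Its correlation between the arrays of a mouse was 0.31 for the genotype and 0.13 for the interaction. Python 3.11.15 with pandas 2.3.3 made the tables.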

Additional observations from a re-analysis of the deposited data

Results flagged for a closer look

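In 5 of the 41 members (12.2%, against 1.47% of all genes) the repeats of a mouse differed in opposite directions in the 2 genotypes: repeat 2 read above repeat 1 in all 3 mogp-TAg mice and below it in all 3 wildtype mice. The difference between the genotypes was not tested, and the labels do not say what separates the repeats. The adipocyte gene Adipoq, named after its values were seen, had larger gaps in the wildtype mice: repeat 2 minus repeat 1 was -0.25, 0.21 and 0.13 in the mogp-TAg mice, against -3.11, -2.73 and -2.04 in the wildtype mice. Its part, and that of adipocytes, in the gaps of the inhibitor genes was not tested. For Slpi, repeat 2 minus repeat 1 was 0.19, 0.52 and 0.18 in the mogp-TAg mice, against -0.39, -0.11 and -0.64 in the wildtype mice, a difference of means of 0.68 on the log2 scale. For Serpina3n the gaps were 0.07, 0.26 and 0.27 in the mogp-TAg mice, against -0.47, -0.06 and -0.88 in the wildtype mice, a difference of 0.67. Wfdc2 had gaps of 0.10, 0.63 and 0.38 in the mogp-TAg mice, against -0.01, -0.43 and -0.27 in the wildtype mice, a difference of 0.61. In Serpinb6b they were 0.46, 0.11 and 0.32 in the mogp-TAg mice, against -0.20, -0.06 and -0.25 in the wildtype mice, a difference of 0.46. Cst11, near the floor, had 0.15, 0.16 and 0.19 in the mogp-TAg mice, against -0.01, -0.09 and -0.01 in the wildtype mice, a difference of 0.20.

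The genotype difference of these genes was therefore not the same on the 2 sets of arrays. Slpi differed by -1.14 (SE 0.25) on repeat 1 and -0.47 (SE 0.17) on repeat 2 arrays, and Serpina3n by -1.73 (SE 0.46) on repeat 1 and -1.06 (SE 0.28) on repeat 2. Wfdc2 differed by 0.80 (SE 0.28) on repeat 1 and 1.41 (SE 0.30) on repeat 2, and Serpinb6b by -1.45 (SE 0.09) on repeat 1 and -0.99 (SE 0.14) on repeat 2. Serpina3n and Serpinb6b passed the limma threshold on both sets (adjusted p = 0.0406 and 0.0367 for Serpina3n), Slpi on repeat 1 only and Wfdc2 on repeat 2 only.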

How the results depend on the processing

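Over 22 alternatives, 784 of 883 values of single members kept their direction and side of the threshold, 49 lost a call, 24 gained one and 26 changed sign. All 26 belonged to members that were not called. Of the 14 called members, Timp4, Serpinb11, Serpinb12, Serpinb6b and Timp3 passed in every setting that tested them, and 0 of the 14 changed sign. The 2 higher members became 1 with the repeat 1 arrays only and 1 with probes above the median, 0 without both 8-week mice and 1 without both 9-week mice, and ranged from 1 to 3 when 1 mouse was left out. The 12 lower members became 6 without both 9-week mice and ranged from 6 to 13 when 1 mouse was left out. The share of all genes called moved as well, to 10.5% without both 9-week mice and to between 11.6% and 23.8% when 1 mouse was left out. The replicate block gave 2 higher and 14 lower, adding Serpinf1 and Timp1, and changed no other call of a member; for the interaction it called 0 members. The age block ended the call of Spink4 and added Serpinf1. Leaving out both mice of 1 age ended, besides calls already lost without 1 mouse, those of Wfdc1 (-1.55, adjusted p = 0.0513, without both 9-week mice) and Wfdc10 (0.71, adjusted p = 0.0591, without both 8-week mice). With the 7-week mogp-TAg mouse by its repeat 1 array alone, an alternative chosen after seeing the data, 2 were higher and 13 lower. Of all genes 22.9% were called in the main fit, 41.2% with array quality weights, 28.4% with the replicate block and 21.3% with the age block. The share was 18.9% on the repeat 1 arrays and 8.75% without both 8-week mice. With the 7-week mogp-TAg mouse by its repeat 1 array alone it was 21.5%. Of the genes left by the filter to probes above the median, 27.2% were called. The median of all probes moved by at most 0.04 on the log2 scale under any scaling. The log2 values that changed sign were Cst7 -0.036 with median scaling; Cst7 -0.031 with no scaling between arrays; Cst7 -0.051, Serpina1a -0.16, Serpina5 -0.064 and Wfdc18 0.24 with array quality weights; Serpinh1 0.084 and Spint2 0.021 with the repeat 1 arrays only. Others were Cst11 0.020 with the repeat 2 arrays only; Serpina5 -0.039, Serpinh1 0.11, Wfdc17 -0.055 and Wfdc18 0.32 without both 7-week mice; Serpinb6c 0.077 and Wfdc15b 0.0031 without both 9-week mice; Serpinh1 0.041 with the 7-week mogp-TAg mouse by its repeat 1 array alone. When 1 mouse was left out, Cst7 from -0.011 to 0.064, Serpina1a from -0.11 to 0.47, Serpina5 from -0.18 to 1.18, Serpinb6c from -0.083 to 0.045, Serpinh1 from -0.36 to 0.13, Spint2 from -0.14 to 0.027 and Wfdc18 from -0.71 to 0.50 changed sign over these ranges. The causes were not tested. The filters on dim probes left 36 and 27 members. With 3 mice per genotype, signals near the floor limit the folds of Serpinb11, Serpinb12, Spink4 and Timp4.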

Other observations

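The arrays of a mouse differed by a median of 0.21 on the log2 scale over the members and by more than 1 in 6 of them. For Serpina1a, repeat 2 minus repeat 1 was -1.45, -1.06 and -0.97 in the mogp-TAg mice, against -0.83, -0.57 and -0.97 in the wildtype mice, and for Serpinh1 it was -1.05, -1.13 and -0.89 in the mogp-TAg mice, against -0.56, -0.44 and -0.75 in the wildtype mice, negative in all 6 mice for both genes.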
